A study of Homo sapiens with 6 samples.

Results

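CDK4 and 8 genes that lie beside it on the long arm of chromosome 12, bands q13 to q14, were followed in Rh30 cells: CDK4, TSPAN31, METTL1, TSFM, OS9, DCTN2, MBD6, PIP4K2C and AGAP2. They were chosen by position, as named genes of a segment that is recurrently amplified in fusion-positive rhabdomyosarcoma (FP-RMS), and each was found by its symbol as 1 of the 35268 named rows of the expression table. How many copies of the segment these cells carry was not measured by the data used here, so the levels are levels of RNA only.

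Rh30 is an established FP-RMS cell line, a tumor cell line of the muscle lineage that carries the PAX3-FOXO1 fusion oncogene. Cells were treated for 24 hours with 1 µM YK-4-279, a compound known for blocking the interactions of ETS transcription factors, dissolved in DMSO, or with DMSO alone, and polyA RNA was sequenced from 3 libraries per group. The question was how the drug changes gene expression in FP-RMS cells. The labels number the libraries of a group as replicates without naming separate cultures, so the p-values measure the spread between these libraries, which may be technical. The groups therefore represent 1 cell line, at 1 dose and 1 time.

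CDK4 is the kinase that, bound to a D-type cyclin, phosphorylates the retinoblastoma protein RB1 and lets E2F factors switch on genes of DNA replication. Gain of the chromosomal segment that carries CDK4 is a known event in sarcomas, and it takes along a set of neighbors with unrelated functions: a membrane tetraspanin (TSPAN31), a tRNA methyltransferase (METTL1), a mitochondrial translation factor (TSFM), an endoplasmic reticulum lectin (OS9), a dynactin subunit (DCTN2), a chromatin protein (MBD6), a lipid kinase (PIP4K2C) and a GTPase-activating protein (AGAP2). Genes of 1 segment are each transcribed from their own promoters, so they share a location rather than a pathway.

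The 9 genes span 287 kb of chromosome 12 (hg38, chr12:57520710-57808071). In order of position, MBD6 (chr12:57520710-57530148, plus strand) lies beside DCTN2 (chr12:57529633-57547224, minus strand), followed by PIP4K2C (chr12:57591174-57603418, plus strand), OS9 (chr12:57693841-57728342, plus strand), AGAP2 (chr12:57723761-57742157, minus strand), TSPAN31 (chr12:57738013-57750219, plus strand), CDK4 (chr12:57747727-57756013, minus strand), METTL1 (chr12:57768471-57772119, minus strand) and TSFM (chr12:57782761-57808071, plus strand). All are protein-coding in GENCODE v44. TSPAN31 and CDK4 are transcribed toward each other from start sites 7.27 kb apart, and their ends overlap, so that 57.8% of the exonic bases of the canonical CDK4 transcript and 39.0% of those of TSPAN31 lie within exons of the other gene on the opposite strand. For TSFM, 94.7% of the exonic bases lie within a same-strand read-through gene model. Of the AGAP2 exonic bases, 19.4% lie opposite exons of AGAP2-AS1, OS9 and TSPAN31, and 26.1% of the OS9 bases lie opposite a noncoding gene. Overlaps of MBD6 (12.3%), DCTN2 (8.5%) and METTL1 (7.8%) were smaller. The library preparation was directional, but whether strand was used in counting is not given in the sources used here. Reads within these overlaps could therefore have been left uncounted or given to either gene. How this bears on the levels and differences below was not tested.

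The DNA just upstream of 3 of the start sites is shown, because CDK4 had the highest level of the 9 genes and TSPAN31 and AGAP2 had the largest positive differences with drug. Each sequence is the 250 bases before a RefSeq start (GRCh38.p14), read 5′ to 3′ on the strand of the gene, with matches to the motifs searched in capitals. RefSeq promoter entries were matched for 8 of the 9 genes, METTL1 having none in the table.
CDK4 (chr12:57752311-57752560, minus strand): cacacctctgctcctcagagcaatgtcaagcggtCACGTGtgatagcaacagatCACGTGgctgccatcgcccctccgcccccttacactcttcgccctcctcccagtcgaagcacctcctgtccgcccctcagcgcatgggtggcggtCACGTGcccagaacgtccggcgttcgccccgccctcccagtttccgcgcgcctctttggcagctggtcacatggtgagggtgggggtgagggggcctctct
TSPAN31 (chr12:57744789-57745038, plus strand): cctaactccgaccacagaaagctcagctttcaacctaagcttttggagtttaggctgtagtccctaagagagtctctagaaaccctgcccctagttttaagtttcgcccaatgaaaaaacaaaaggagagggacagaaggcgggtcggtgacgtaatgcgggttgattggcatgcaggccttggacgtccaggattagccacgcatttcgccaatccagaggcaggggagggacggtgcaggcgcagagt
AGAP2 (chr12:57742162-57742411, minus strand): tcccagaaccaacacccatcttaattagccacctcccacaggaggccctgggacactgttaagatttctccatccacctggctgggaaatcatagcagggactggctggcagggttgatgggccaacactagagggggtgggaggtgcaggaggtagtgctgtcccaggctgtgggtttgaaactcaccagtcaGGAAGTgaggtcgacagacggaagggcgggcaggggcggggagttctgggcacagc
The motifs searched on both strands were the E-box CACGTG, which MYC family proteins are known to bind, and 2 forms of the ETS core, CCGGAAG and GGAAGT, which share the letters GGAAG. The CDK4 sequence held 3 E-boxes, whose first bases lie at -216, -196 and -101 from the start. At least 1 E-box was present in 6.34% of the 35116 promoter windows of the same length in the RefSeq table, and 3 or more in 0.0797% of them, or 28 windows. The AGAP2 sequence held 1 GGAAGT, at -56, a motif that 19.5% of all windows hold. AGAP2 has a second RefSeq entry, whose window (chr12:57738743-57738992, minus strand) adjoins the start of the canonical transcript and held none of the 3 motifs. TSPAN31 held none of the 3 motifs, and CCGGAAG, found in 8.52% of all windows, was absent from the windows of all 8 matched genes. These are matches of letters, not measured binding sites.

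The 6 libraries held 16724650 to 24677433 reads, and all 9 genes passed the filter on low values (a mean normalized count of at least 10, met by 13930 genes). A normalized count is a number of reads divided by a factor of its library, in units near those of reads. The cells carried markers of their lineage, with all 8 listed FP-RMS markers expressed, led by the myogenic factor MYOD1 at a mean of 37118 normalized counts in DMSO. None of the 8 was called changed by limma, edgeR or DESeq2, and 3 had an unadjusted limma p under 0.05, as did 18.7% of all genes tested. When DMSO replicate 1 was left out, limma called 2 of the 8 lower, and when DMSO replicate 2 was, 1 higher and 1 lower. Markers of blood (PTPRC, CD3E, CD68) and of squamous epithelium (KRT5, KRT14) were at 0 or near 0, and the highest mean among the 9 markers of other cells was 73.4 normalized counts, for EPCAM with YK-4-279. DMSO replicate 1 stood apart, its values over all genes tested correlating with those of the other libraries at a mean r of 0.989, where no other library fell below 0.992. Fold changes of the 9 genes that it alters are therefore given also without it. In that setting 13.1% of all genes passed the threshold used below, against 3.41% with all libraries.

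In DMSO-treated cells, the genes of the neighborhood were among the more abundant transcripts. Per kilobase of canonical transcript, 6 of the 9 exceeded the 93rd percentile of the 13705 genes tested that have a length, and 8 exceeded the median gene. The median level of the 9 was 1684 normalized counts per kb, against 162 for all genes with a length. The highest, CDK4, stood 294 times above the lowest, TSFM.

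CDK4 had 27154 normalized counts per kb in DMSO (SD 1966, n = 3), rank 32 of 13705. Reads of this single gene made up 0.243% of all reads in DMSO and 0.232% with YK-4-279. OS9, a lectin that delivers misfolded glycoproteins of the endoplasmic reticulum for degradation, followed with 11631 per kb, rank 81. These were the only 2 of the 9 genes above the 99th percentile.

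METTL1, the catalytic subunit of the enzyme that places 7-methylguanosine in tRNAs, had 2278 normalized counts per kb. MBD6, a methyl-CpG-binding domain family protein that associates with a histone H2A deubiquitinase, had 1861 per kb, and PIP4K2C, a kinase of phosphatidylinositol 5-phosphate, 1684 per kb. TSPAN31, a tetraspanin first described as a sarcoma amplified sequence, had 1320 per kb. These 4 genes lay between percentiles 93.1 and 96.6.

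The 3 least abundant of the 9 were spread widely. DCTN2, which encodes the dynamitin subunit of the dynein activator dynactin, had 735 normalized counts per kb, percentile 86.1. AGAP2, which acts on small GTPases of the ARF family, had 264 per kb, the 62.8th percentile. TSFM, the exchange factor that recycles the mitochondrial elongation factor TUFM, had 92.3 per kb, the 37.6th percentile, and was the only 1 of the 9 below the median. Its level rests on 127 to 235 reads per library, beside the 94.7% overlap with the read-through gene model, whose part in the level was not tested.

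In this order, each gene exceeded the next by more than the SDs of both over the DMSO libraries, with the exception of MBD6 and PIP4K2C, whose ratio of 1.10 lay within them. The widest step between consecutive genes was that from OS9 to METTL1, a ratio of 5.11. CDK4 itself exceeded OS9 2.33 times.

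**Figure D1:**
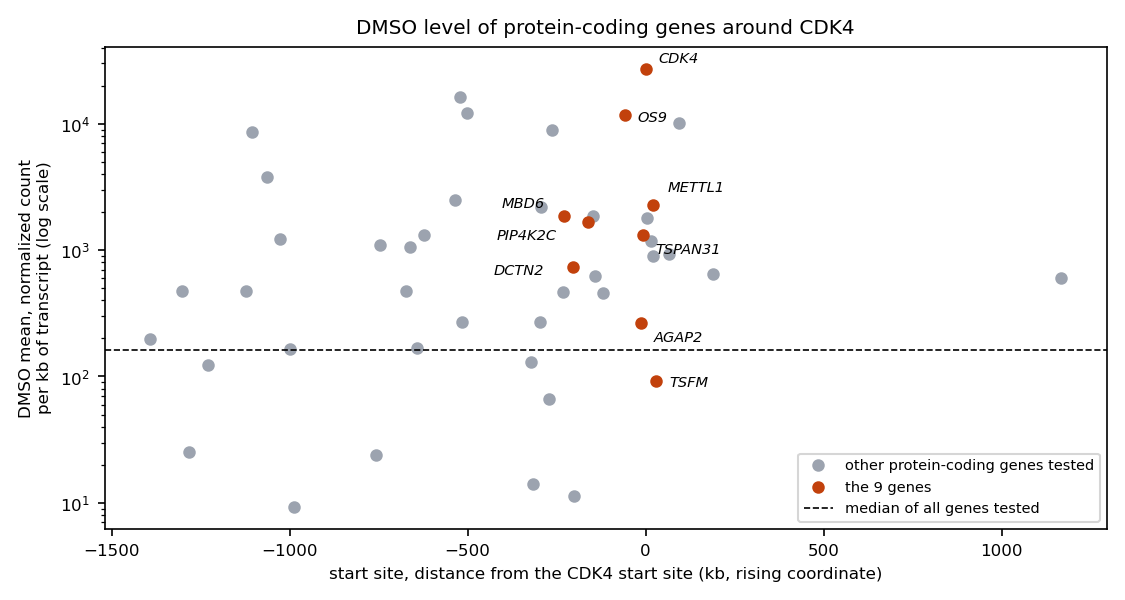
Mean normalized count per kb of canonical transcript in the 3 DMSO libraries (vertical axis, log scale) against the distance in kb of each start site from that of CDK4 (horizontal axis) for protein-coding genes tested; orange points are the 9 genes, gray points other genes, and the dashed line is the median of all genes tested with a length. CDK4, at 27154 per kb, is the highest point, and AGAP2 and TSFM are the lowest of the orange points, at 264 and 92.3 per kb.

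High levels were not particular to the 9 genes along this part of the chromosome. The 9 other protein-coding genes tested that overlap the stretch from the start of MBD6 to the end of TSFM had a median at the 89.0th percentile per kb, and the 17 within 200 kb of the stretch, those 9 included, had a median at the 83.9th. The 21 genes up to 1 Mb farther out, nearly all of them on the MBD6 side, had a median at the 77.9th percentile. The 90 up to 5 Mb away, those 21 included, had a median at the 54.5th. The 644 on the rest of chromosome 12, those 90 included, had a median at the 52.4th. These medians are descriptions, with no test. Among the other genes within 200 kb, the highest levels per kb were those of CTDSP2, a small C-terminal domain phosphatase gene (10077), MARS1, the cytosolic methionyl-tRNA synthetase (8992), and GLI1, the Hedgehog pathway transcription factor (2191). High and low genes were interleaved: KIF5A, a neuronal kinesin gene named after its values were seen, had 11.3 per kb, and its start lies 41.1 kb from that of PIP4K2C.

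With YK-4-279, none of the 9 genes passed the threshold of an adjusted p under 0.05. Across all genes tested by limma, 3.41% passed, 1.26% as higher and 2.15% as lower with drug. An unadjusted p under 0.05 was reached by 2 of the 9, TSPAN31 and AGAP2, and by 18.7% of all genes tested. Both edgeR and DESeq2 on the recovered reads called 1, TSPAN31, with 3.34% and 4.97% of all genes called. The median log2 fold change of the 9 was 0.03, against -0.01 for all genes tested, with 5 positive and 4 negative values. Groups did not overlap, with YK-4-279 higher, for 2 of the 9 (TSPAN31 and AGAP2) and, with YK-4-279 lower, for 2 (METTL1 and DCTN2). Over all genes tested, 10.9% were without overlap and higher and 15.1% without overlap and lower.

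**Figure D2:**
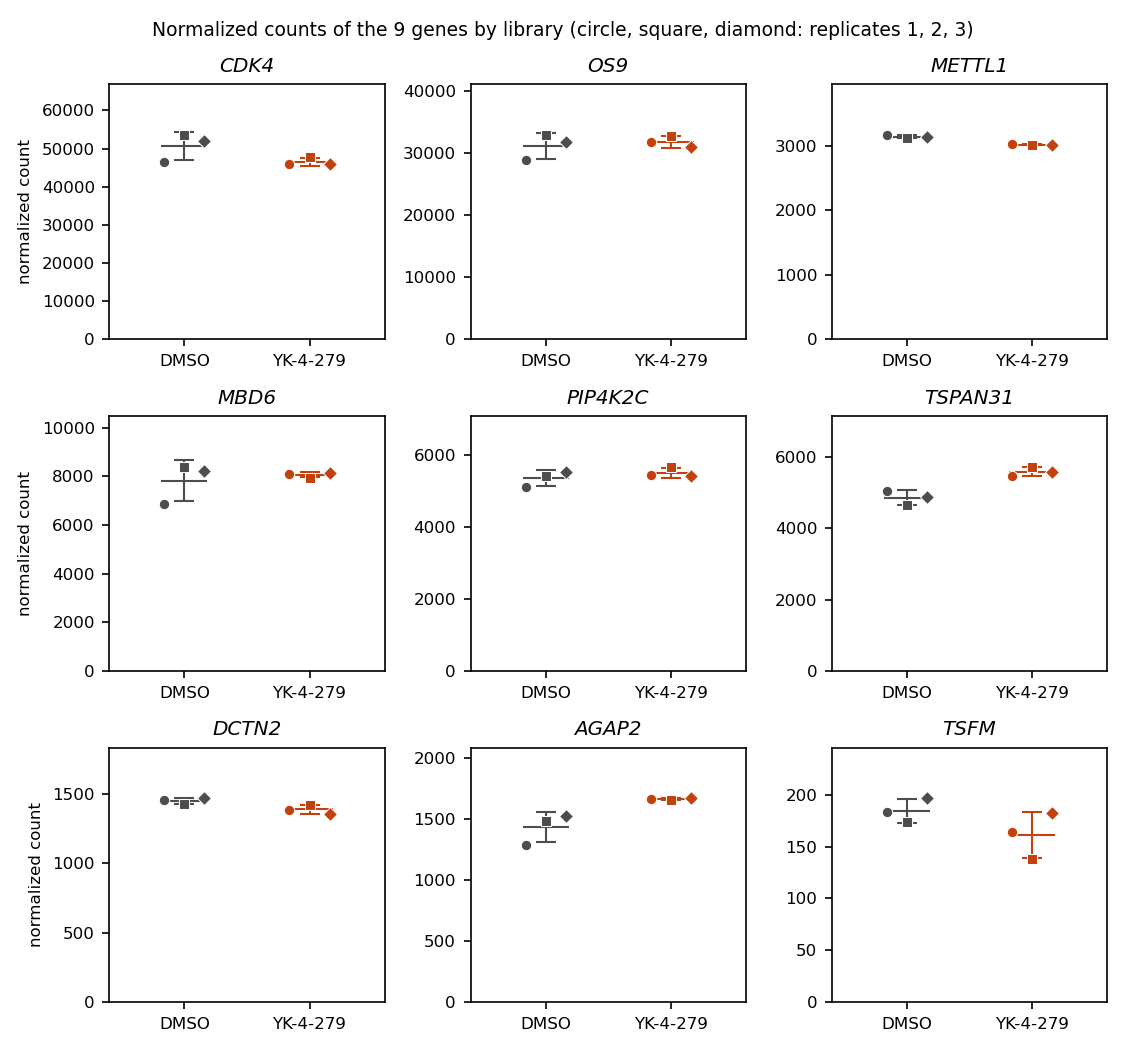
Normalized count of each of the 9 genes (vertical axes from 0, a scale of its own in each panel) in the DMSO libraries (gray) and the YK-4-279 libraries (orange), with circles, squares and diamonds for replicates 1, 2 and 3, and bars for the mean and SD of 3 libraries. The orange points lie above all gray points for TSPAN31 and AGAP2, and below all of them for METTL1 and DCTN2 by a small margin.

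CDK4 had 46488, 53432 and 52004 normalized counts in DMSO replicates 1, 2 and 3, and 45972, 47739 and 45853 with YK-4-279. DMSO replicates 2 and 3 lay above all treated libraries, whereas replicate 1 lay inside their range. The means were 50641 ± 3667 and 46521 ± 1056 (SD, n = 3), a log2 fold change of -0.12 (SE 0.06, 95% interval -0.25 to 0.01, limma adjusted p = 0.323). Without DMSO replicate 1 the log2 fold change was -0.18 (limma adjusted p = 0.00303), with 13.1% of all genes passing.

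TSPAN31 had 5057, 4643 and 4870 normalized counts in DMSO replicates 1 to 3, and 5472, 5719 and 5569 with YK-4-279. Every treated library lay above every DMSO library. The means of 4857 ± 208 and 5587 ± 124 (SD, n = 3) differed by a factor of 1.15, a log2 fold change of 0.20 (SE 0.06, 95% interval 0.08 to 0.32, limma adjusted p = 0.066). The call turned on the scaling and the test: TMM scaling, quantile normalization, edgeR and DESeq2 each put the adjusted p between 0.0164 and 0.045, with log2 fold changes of 0.21 to 0.26. The limma adjusted p was 0.202 with eBayes without trend and 0.16 with the replicate number as a block. It was 0.133, 0.153 and 0.239 to 0.267 without DMSO replicate 2, DMSO replicate 3 and each treated library. Without DMSO replicate 1 the log2 fold change was 0.23 (limma adjusted p = 3.15e-05).

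AGAP2, next to TSPAN31, had 1292, 1485 and 1529 normalized counts in DMSO and 1663, 1654 and 1670 with YK-4-279. The treated libraries lay close together and above all DMSO libraries, of which replicate 1 was the lowest. The means of 1435 ± 126 and 1662 ± 8.02 (SD, n = 3) differed by 15.8%, which did not pass the test (log2 fold change 0.22, SE 0.07, 95% interval 0.06 to 0.37, limma adjusted p = 0.122). Without DMSO replicate 1 the difference was smaller, 0.14 on the log2 scale, and the adjusted p was 0.0436.

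For METTL1, the DMSO libraries had 3159, 3120 and 3140 normalized counts and the treated libraries 3031, 3015 and 3005. The groups were separate, with the treated libraries lower, but the distance was small. The means of 3139 ± 19.4 and 3017 ± 13.2 (SD, n = 3) correspond to a log2 fold change of -0.06 (SE 0.05, 95% interval -0.17 to 0.06, limma adjusted p = 0.605), or -0.05 without DMSO replicate 1.

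DCTN2 gave a like pattern, with 1455, 1429 and 1468 normalized counts in DMSO and 1384, 1422 and 1360 with YK-4-279. Its lowest DMSO library and its highest treated library were 6.50 counts apart. The log2 fold change was -0.06 (SE 0.06, 95% interval -0.19 to 0.07, limma adjusted p = 0.619), or -0.06 without DMSO replicate 1.

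The remaining 4 genes overlapped between the groups. OS9 had 28868, 32872 and 31841 normalized counts in DMSO and 31789, 32788 and 30954 with YK-4-279, a log2 fold change of 0.03 (95% interval -0.10 to 0.16, limma adjusted p = 0.822). MBD6 had 6852, 8384 and 8219 in DMSO and 8085, 7948 and 8152 with YK-4-279 (0.05, 95% interval -0.10 to 0.20, limma adjusted p = 0.753). In both genes DMSO replicate 1 was the lowest of all 6 libraries, and without it the log2 fold changes were -0.02 and -0.04.

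PIP4K2C had 5110, 5404 and 5531 normalized counts in DMSO and 5436, 5656 and 5408 with YK-4-279, a log2 fold change of 0.04 (95% interval -0.08 to 0.16, limma adjusted p = 0.737) that was 0.0084 without DMSO replicate 1. TSFM had 183, 174 and 196 in DMSO and 164, 138 and 182 with YK-4-279, and its log2 fold change of -0.20 had the widest interval of the 9 (-0.47 to 0.07, limma adjusted p = 0.426). It was -0.09 without YK-4-279 replicate 2 and -0.29 without YK-4-279 replicate 3, and it passed in neither case. Of the treated libraries, 2 lay inside the DMSO range for PIP4K2C and 1 for TSFM.

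DMSO replicate 1 departed from the other DMSO libraries by an amount that differed from gene to gene. It was the lowest DMSO library for 5 of the 9 genes (MBD6, AGAP2, CDK4, OS9 and PIP4K2C) and the highest for 2 (METTL1 and TSPAN31). On the log2 scale its departure from the mean of DMSO replicates 2 and 3 was -0.28 for MBD6 and -0.22 for AGAP2, whose transcripts have the highest GC content of the 9 (62.2% and 65.2%). It was 0.09 for TSPAN31, with 47.7% GC, and the median over all genes tested was 0.02. Of the rest, CDK4 (52% GC) was at -0.18, OS9 (54.6%) at -0.16, METTL1 (53.1%) at 0.01 and DCTN2 (51.6%) at 0.01. PIP4K2C (49.6%) was at -0.10, and TSFM, which had the lowest GC content (44.8%), at -0.01. This library also held the fewest reads, 16724650. No relation of the departure to GC content or to depth was tested. In an alternative chosen after seeing the data, the dependence of each library on GC and length was fitted and subtracted, and the log2 fold changes were -0.18 for CDK4, 0.19 for TSPAN31 and 0.13 for AGAP2 (limma adjusted p = 0.0219, 0.00326 and 0.0789), with 14% of all genes passing.

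**Figure D3:**
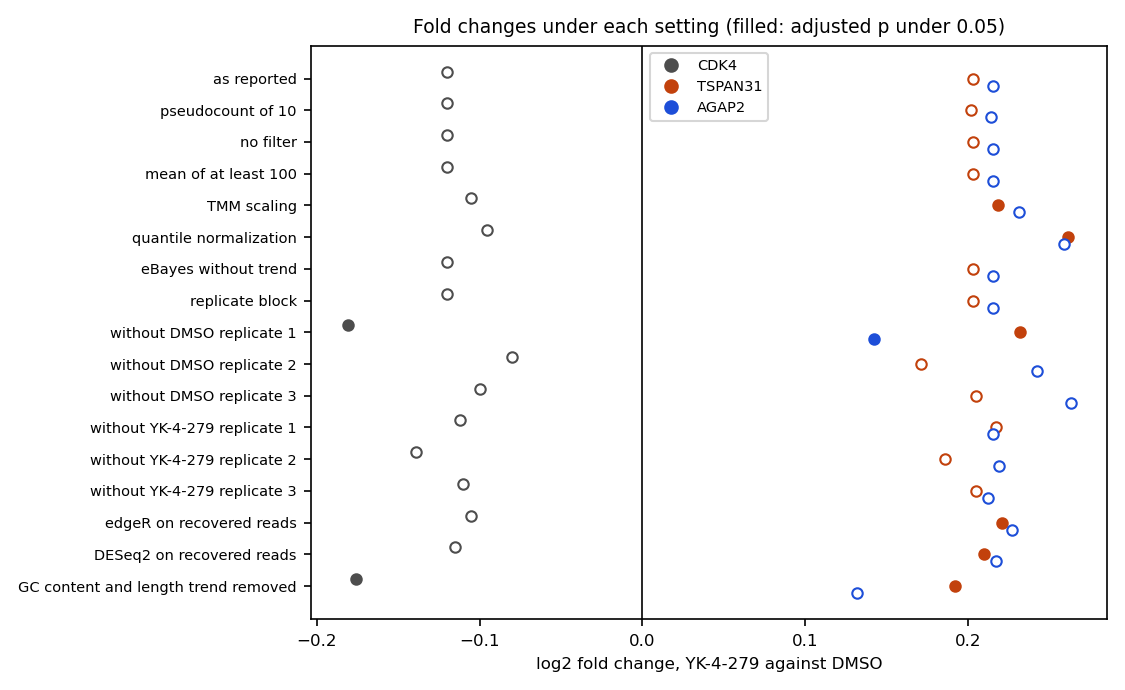
Log2 fold change of CDK4 (gray), TSPAN31 (orange) and AGAP2 (blue) with YK-4-279 against DMSO (horizontal axis) as reported and under each of 16 other settings (vertical axis), filled where the adjusted p is under 0.05. CDK4 is negative, between -0.18 and -0.08, and the other two are positive in every setting, and the 3 points are all filled only without DMSO replicate 1.

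Dividing each gene by CDK4 within a library removes the factor of the library. TSPAN31 reads were 10.88%, 8.69% and 9.37% of CDK4 reads in DMSO replicates 1, 2 and 3, and 11.90%, 11.98% and 12.15% with YK-4-279. AGAP2 reads were 2.78%, 2.78% and 2.94% of CDK4 reads in DMSO, and 3.62%, 3.46% and 3.64% with YK-4-279. OS9 reads were 62.1%, 61.5% and 61.2% in DMSO and 69.1%, 68.7% and 67.5% with YK-4-279. All 3 ratios were higher in every treated library than in any DMSO library, DMSO replicate 1 included.

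The ratio to CDK4 was also higher without overlap for MBD6 (15.4% ± 0.585 in DMSO and 17.3% ± 0.605 with YK-4-279, SD, n = 3) and PIP4K2C (10.6% ± 0.442 and 11.8% ± 0.0272, SD, n = 3), so that 5 of 8 ratios were higher without overlap. Among all genes tested, the ratio to CDK4 was higher without overlap for 25.8%, and its median difference was 0.11 on the log2 scale, beside the difference of -0.12 in CDK4 itself. Those of METTL1, DCTN2 and TSFM overlapped. On the log2 scale the 5 ratios differed by 0.34 (AGAP2), 0.32 (TSPAN31), 0.17 (MBD6), 0.16 (PIP4K2C) and 0.15 (OS9). Each reached the smallest p that 3 against 3 libraries allow in a two-sided exact permutation test, 0.1, or 0.16 after Benjamini-Hochberg adjustment over the 8 ratios, so this test cannot pass 0.05 with 3 against 3 libraries. In limma on the log2 ratio to CDK4 over all genes, added after seeing the data, none of the 8 passed, with adjusted p of 0.054 for AGAP2, 0.0829 for TSPAN31 and 0.177 to 0.207 for OS9, MBD6 and PIP4K2C, whereas 1.49% of all genes passed as higher. An unadjusted p under 0.05 was reached by 5 of the 8 and by 20.8% of all genes. The 8 ratios share CDK4 as their denominator and are not independent, and TSPAN31 shares exonic bases with CDK4.

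**Figure D4:**
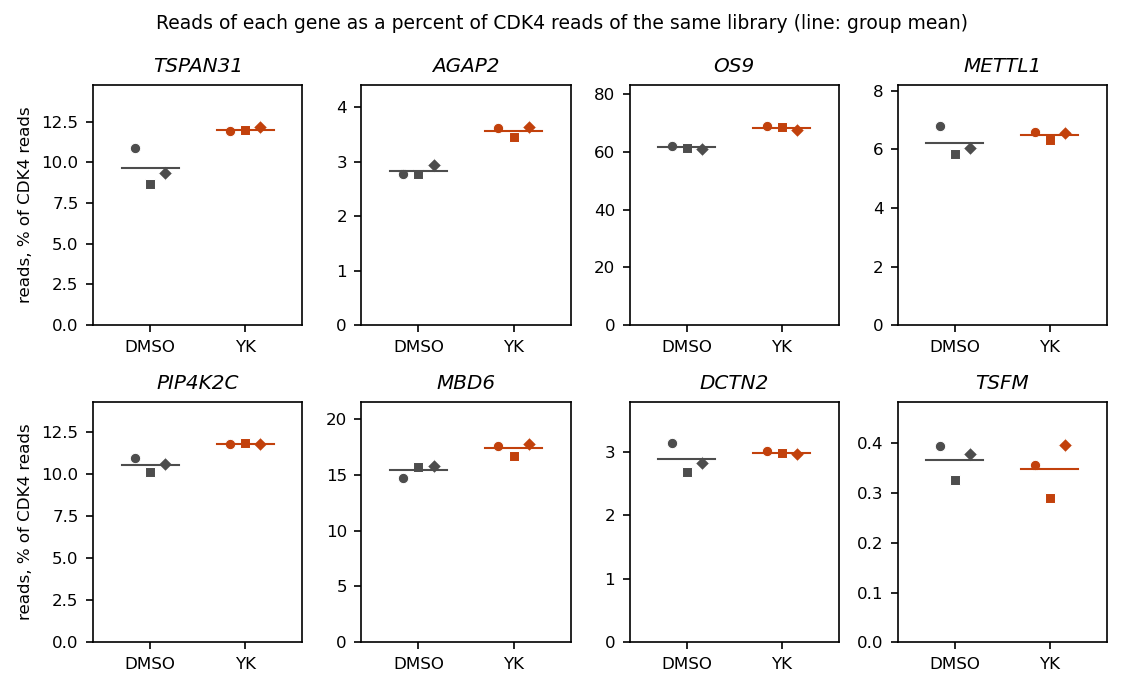
Reads of each of the 8 other genes as a percent of CDK4 reads in the same library (vertical axes from 0), for DMSO (gray) and YK-4-279 (orange, written YK), with circles, squares and diamonds for replicates 1, 2 and 3 and a line at the group mean. The orange points lie above all gray points for TSPAN31, AGAP2, OS9, PIP4K2C and MBD6, and the groups overlap for METTL1, DCTN2 and TSFM.

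Across the 6 libraries the 9 genes did not share 1 profile. Over log2 values, Pearson's r with CDK4 was 0.58 for DCTN2, 0.55 for METTL1, 0.53 for OS9, 0.47 for MBD6 and 0.26 for both TSFM and PIP4K2C, and it was -0.19 for AGAP2 and -0.81 for TSPAN31. The 6 points share 2 treatments and the scaling of their libraries. The genes most like CDK4 among those with a mean of at least 100 were MAD2L2 (r = 0.998), GCAT (0.994), POLD2 (0.993), IRX3 (0.992) and NLE1 (0.992), of which POLD2 encodes a subunit of DNA polymerase delta and none lies in the stretch. None of the 5 passed the threshold.

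Of the other genes within 200 kb of the stretch, 20 were tested and 4 changed, 3 higher and 1 lower, where 1.26% and 2.15% of all genes passed in each direction. INHBE, which encodes an inhibin beta subunit, had 595, 683 and 705 normalized counts in DMSO and 937, 940 and 863 with YK-4-279 (log2 fold change 0.47, SE 0.08, limma adjusted p = 0.0102). ARHGAP9 had 169, 168 and 179 in DMSO and 235, 237 and 241 with YK-4-279 (0.47, SE 0.10, limma adjusted p = 0.0262). DDIT3, which encodes the stress-induced factor CHOP and starts 2.31 kb from MBD6, had 414, 432 and 418 in DMSO and 554, 531 and 513 with YK-4-279 (0.34, SE 0.08, limma adjusted p = 0.036). Of the DDIT3 exonic bases, 24.3% lie opposite exons of the abundant MARS1, an overlap whose part in the counts was not tested.

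GLI1 was the neighbor that fell, from 7800, 9175 and 9133 normalized counts in DMSO to 6980, 6885 and 6753 with YK-4-279 (log2 fold change -0.34, SE 0.07, limma adjusted p = 0.0153). All 4 lie on the MBD6 side of the stretch, between 232 and 297 kb from the CDK4 start. All 4 calls were lost when any 1 treated library was left out (adjusted p of 0.055 to 0.223), and those of GLI1, ARHGAP9 and DDIT3 also without DMSO replicate 3 (0.0683, 0.0608 and 0.103). With the replicate number as a block, those of ARHGAP9 and DDIT3 were lost (limma adjusted p = 0.0724 and 0.0984). With 1 library left out, the log2 fold changes of INHBE stayed between 0.40 and 0.52 and those of GLI1 between -0.41 and -0.30. The abundant CTDSP2 (48218 ± 1572 to 52462 ± 1100, SD, n = 3, limma adjusted p = 0.254) and MARS1 (limma adjusted p = 0.71) did not pass. With quantile normalization CTDSP2 passed as higher (log2 fold change 0.169, limma adjusted p = 0.0292) and DDIT3 did not pass (0.0517). The 4 calls held without DMSO replicate 1, and 4 more neighbors passed as lower, B4GALNT1 (log2 fold change -0.255), ARHGEF25 (-0.24), DTX3 (-0.145) and MARCHF9 (-0.133), named after their values were seen (limma adjusted p of 3.64e-05 to 0.0193). That made 3 higher and 5 lower, with 13.1% of all genes passing.

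**Figure D5:**
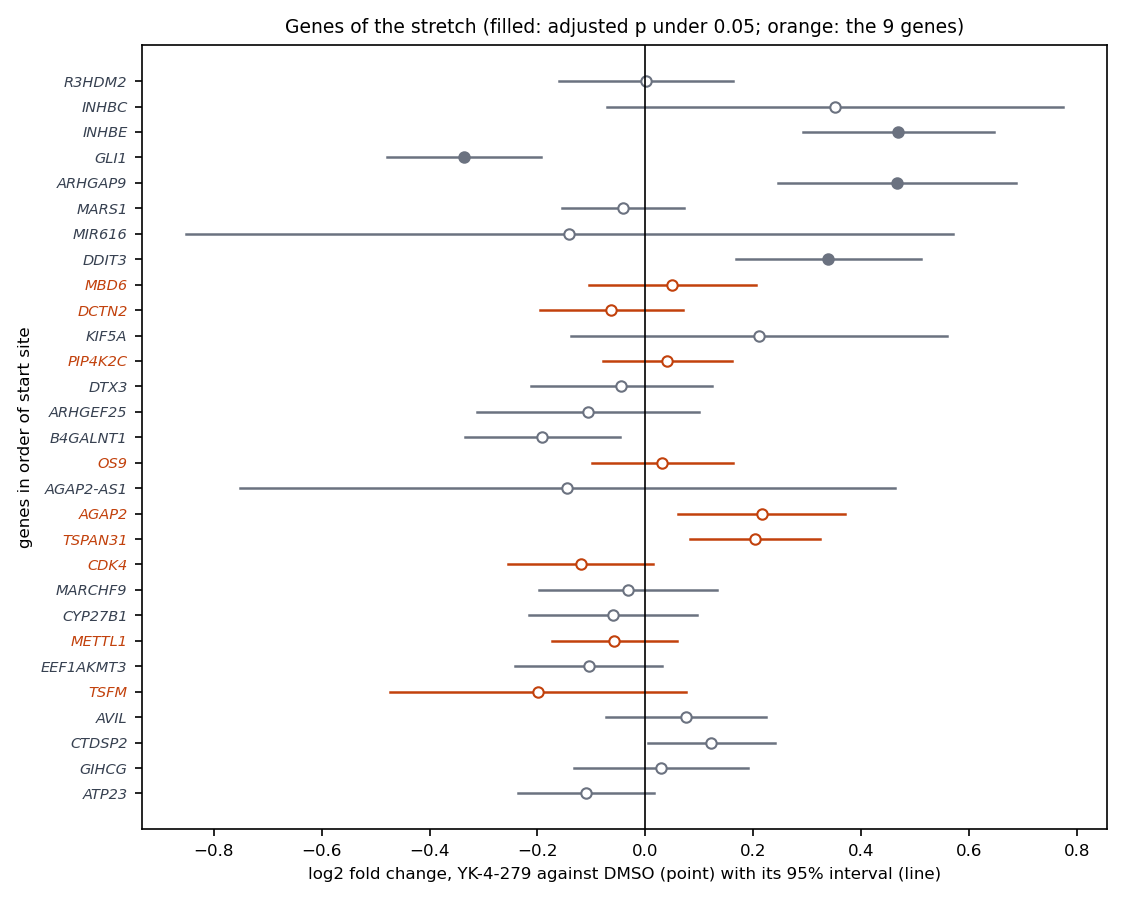
Log2 fold change with YK-4-279 against DMSO (points) with 95% intervals (lines) for the genes tested within 200 kb of the stretch, ordered from top to bottom by start site; orange marks the 9 genes, gray the others, and filled points an adjusted p under 0.05 over all genes. The intervals of TSPAN31 and AGAP2 lie above 0 although their points are open, because the intervals are not adjusted for the number of genes.

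The partners of CDK4 were examined as a list of 17 tested genes of the pathway to RB1: D-type cyclins, inhibitors, pocket proteins and E2F factors. In this list 1 gene rose, 2 fell and 14 did not pass, beside 3.41% passing among all genes, and the median log2 fold change was -0.12. DESeq2 called 5 of the 17, 1 higher and 4 lower, with 4.97% of all genes called, and edgeR called 3, with 3.34%. Of the 17, 8 had an unadjusted limma p under 0.05, beside 18.7% of all genes. CDKN2B, the inhibitor p15 that binds CDK4 and CDK6 directly, rose from 78.2, 90.9 and 78.5 normalized counts in DMSO to 195, 177 and 178 with YK-4-279 (log2 fold change 1.15, SE 0.13, limma adjusted p = 7.49e-04). It was called in every setting tried.

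The 2 that fell were E2F2 (1513 ± 47.3 to 1217 ± 17.7, SD, n = 3, log2 fold change -0.31, limma adjusted p = 0.0167) and TFDP1, the dimerization partner of E2F factors (3951 ± 90.9 to 3206 ± 92.2, SD, n = 3, -0.30, limma adjusted p = 0.0118). Both calls were lost when any 1 treated library was left out (adjusted p of 0.083 to 0.128, with at most 0.331% of all genes called), and that of E2F2 also without DMSO replicate 3 (0.0786) and with quantile normalization (0.0534). With the replicate number as a block, E2F2 did not pass (limma adjusted p = 0.0646) and TFDP1 did (0.049). Without a treated library the log2 fold changes were -0.322 to -0.302 for E2F2 and -0.318 to -0.278 for TFDP1. Without DMSO replicate 1, 9 genes of the list were called lower and 1 higher, with 13.1% of all genes called. The cyclin with the highest mean, CCND2, had a log2 fold change of 0.02 (11480 ± 311 and 11645 ± 415, SD, n = 3, limma adjusted p = 0.877).

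The distal part of the same arm, bands q14 to q15, can be amplified together with CDK4 in other sarcomas and was examined through 8 tested genes. HMGA2, a chromatin architectural factor, fell from 3434 ± 135 to 2918 ± 130 (SD, n = 3, log2 fold change -0.24, limma adjusted p = 0.0491), where 2.15% of all genes passed as lower, and 7 genes did not pass, among them CCT2, the chaperonin subunit with the highest mean of the list (log2 fold change -0.08, limma adjusted p = 0.561). The HMGA2 call did not hold in edgeR (adjusted p = 0.0628), nor in limma with TMM scaling (adjusted p = 0.0609) or quantile normalization (0.147). In limma it was also lost with no filter (adjusted p = 0.0576), the replicate number as a block (0.12) and eBayes without trend (0.182). It was lost too without DMSO replicate 3 (limma adjusted p = 0.105) and without any 1 treated library (limma adjusted p of 0.127 to 0.265). The call held in DESeq2 (adjusted p = 0.0197), without DMSO replicate 1 (-0.20, limma adjusted p = 6.71e-04) and without DMSO replicate 2 (limma adjusted p = 0.0478). MDM2, chosen for mention after its values were seen, had 1129 ± 81.8 and 1074 ± 46.8 (SD, n = 3, log2 fold change -0.07, limma adjusted p = 0.647).

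Among 17 other tetraspanin genes tested beside TSPAN31, 1 fell and none rose, beside 2.15% of all genes passing as lower. Of the 17, 4 had an unadjusted limma p under 0.05, beside 18.7% of all genes. TSPAN3 fell from 6817 ± 89.5 to 5561 ± 96.1 (SD, n = 3, log2 fold change -0.29, limma adjusted p = 0.0105), a call that was lost without any 1 treated library (adjusted p of 0.0789 to 0.108). TSPAN9 had the highest mean of the list and did not pass (log2 fold change -0.10, limma adjusted p = 0.579). The median of the 17 was 0.00. Leaving out DMSO replicate 1, limma called 4 of the 17 lower and none higher, with 13.1% of all genes called.

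The partners of the other genes gave no calls in limma, edgeR or DESeq2 with all libraries. The number with an unadjusted limma p under 0.05, which 18.7% of all genes reached, is given for each list. It was 1 of 13 genes of tRNA methylation, 1 of 9 mitochondrial translation factors, 1 of 16 genes of endoplasmic reticulum-associated degradation and 2 of 11 other dynactin subunits. It was 0 of 9 methyl-binding and deubiquitinase complex genes, 1 of 5 phosphatidylinositol phosphate kinases and 1 of 8 relatives of AGAP2. With DMSO replicate 1 left out, limma called 1 gene lower in the mitochondrial, dynactin and AGAP2 lists each and 1 higher in the degradation list, with 13.1% of all genes called, and with DMSO replicate 2 left out 1 lower in the tRNA and dynactin lists each, with 4.92% called. The list medians lay between -0.10 and 0.02. The member with the highest mean in each list, in the same order, was TRMT1 (log2 fold change 0.05), TUFM (-0.11), HSPA5 (-0.04), ACTR1A (0.01), ASXL1 (-0.03), PIP4K2B (0.02) and AGAP3 (-0.07). WDR4, the obligate partner of METTL1, was chosen for mention after its values were seen, with 1209 ± 78.8 normalized counts in DMSO and 1206 ± 27.4 with YK-4-279 (SD, n = 3, limma adjusted p = 0.991).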

How the data were processed

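mRNA was sequenced (paired-end, directional library) from 6 libraries of Rh30 cells. The authors used BBDuk for trimming and STAR for alignment to hg38 and for gene counting. The annotation and strand setting of counting are not given in the sources used here. The deposited values are a normalized signal, reads divided by a library factor, so limma was used in place of the authors' DESeq2. Whole reads were recovered for 100% of values (tolerance 0.01). The labels' notes name STAR 2.7.9a and DESeq2 1.44.0. Of 35269 rows, 1 without a gene name was left out.

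limma 3.58.1 in R 4.3.3 (lmFit, eBayes with trend, two-sided, Benjamini-Hochberg over all 13930 genes tested) was fitted to log2(normalized count + 1), which understates the change of low genes. The fit was tried on simulated data, with changes larger than those of the 9 genes and no outlying library. That trial therefore does not cover differences as small as those of the 9 genes. Alternatives included edgeR 4.0.16 and DESeq2 1.42.0 on recovered reads. Positions, lengths and GC content came from GENCODE v44. Genes named were the 9, neighbors past the threshold or with the 3 highest levels, list members past the threshold or with the highest mean, and the 5 profiles most like CDK4. Other genes, such as KIF5A, were named after their values were seen and are marked so. The 9 genes and all lists were chosen with earlier results of these data known.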

Additional observations from a re-analysis of the deposited data

How the results depend on the processing

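Over 16 alternative settings, 131 of 144 fold changes of the 9 genes kept their direction and their side of the threshold, including all those of 4 genes (METTL1, DCTN2, PIP4K2C and TSFM). The number of genes called was 0 as reported, 1 with TMM scaling, quantile normalization, edgeR or DESeq2, 2 after the GC and length correction, an alternative chosen after seeing the data, and 0 to 3 when 1 library was left out, with 3 (CDK4, TSPAN31 and AGAP2) without DMSO replicate 1. The median log2 fold change of the 9 lay between -0.0423 and 0.0487 when 1 library was left out, and was -0.0344 after the GC and length correction. Without DMSO replicate 1 the signs of OS9 (-0.0233) and MBD6 (-0.0423) reversed, as they did after the GC and length correction (-0.0304 and -0.0344), and their highest values with 1 library left out were 0.0704 and 0.103, without DMSO replicate 2. The cause was not tested. The number of all genes called varied with the setting, from 475 as reported to 1827 without DMSO replicate 1, 242 without DMSO replicate 3, 19, 25 and 46 without YK-4-279 replicates 1, 2 and 3, 277 with quantile normalization, 33 with eBayes without trend and 1950 after the GC and length correction. Of the neighbors and list genes called, CDKN2B was called in every setting, and none of the rest was with eBayes without trend. Adding the replicate number as a block gave 180 genes called, none of the 9, with a median of 0.0315, as without it. Of the neighbors and list genes called, ARHGAP9, DDIT3, E2F2 and HMGA2 lost their calls with the block (limma adjusted p = 0.0724, 0.0984, 0.0646 and 0.12). The numbers were not used as pairs, because the methods name no pairing of libraries. Deviations from the group means correlated at -0.0985, -0.0269 and -0.0267 between libraries of the same number, and no library correlated best with its own number. These deviations cancel out within each group of 3, so the correlations cannot show that the libraries were unpaired. TSFM, with 127 to 235 reads per library, was the gene most limited by depth. After the GC and length correction, with 14% of all genes called, the lists with no call as reported held 1 (tRNA methylation), 2 (mitochondrial), 1 (degradation), 2 (dynactin) and 3 (AGAP2 relatives) calls, the tetraspanins 4, the FP-RMS markers 2 and the CDK4 to RB1 list 1 higher and 9 lower, and DTX3, ARHGEF25 and B4GALNT1 passed as lower among the neighbors (adjusted p of 3.52e-04 to 0.0354).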
